A study of Mus musculus with 17 samples.

Results

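Neuropeptides and secreted trophic factors were followed through 10 genes, Pdyn, Penk, Npy, Sst, Cck, Tac1, Crh, Vgf, Scg2 and Bdnf. Every probe set that the platform annotation gives to one of these symbols alone was taken, which gave 12 probe sets among the 45037 that were tested. The genes form 10 of the 18193 genes with a probe set of their own. Tac1 and Bdnf have 2 probe sets each and the other 8 genes have 1.

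The study deleted Foxo1, Foxo3 and Foxo4, forkhead transcription factors held in check by insulin and AKT signalling, and asked what their loss does in the mouse brain. Dentate gyrus was laser-captured and hybridised to Affymetrix mouse arrays. The labels give 8 samples of genotype FOXO 1/3/4 KO and 7 WT samples, and 2 further samples, 1 of each genotype, that carry the mark CA13 in their titles. According to the study's methods, floxed Foxo mice were crossed to hGFAP-cre mice on a mixed FVB and B6 background. The study states that this Cre acts in progenitors shared by neurons and glia and so removes FOXO from both. An effect within neurons therefore cannot be told apart from one that comes through glia. The loss was read here for Foxo1 alone and not by cell type. The labels name brain as the tissue and give neither treatment, age nor sex. They do not say that each sample came from a separate mouse, so p-values measure the spread between these samples.

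Neuropeptides are cut from larger precursors, stored in dense-core vesicles and released under sustained firing, after which they act on G protein-coupled receptors. In the dentate gyrus, granule cells store opioid peptides in their mossy fibres, while NPY, somatostatin and cholecystokinin are the classical peptides of GABAergic interneurons. Granins such as SCG2 help to form the vesicles, and BDNF and VGF are trophic proteins whose genes respond to neuronal activity. In tissue captured in bulk, fewer cells of a type and less RNA per cell cannot be told apart.

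Promoter letters are shown because FOXO proteins bind the element GTAAACA and because activity reaches several of these genes through the cAMP response element TGACGTCA. Windows of 250 bases upstream of RefSeq starts (GRCm38.p6) were searched on both strands, 14 windows for 7 of the genes. No window was at hand for Penk, Crh and Vgf, so these genes were not searched. GTAAACA occurred in 1 of the 14 windows, that of Cck, and in 3.17% of all 32851 windows. TGACGTCA occurred in 2 of the 14, those of Sst and Scg2, and in 1.55% of all windows. Its shorter core TGACG, which lies within TGACGTCA, was found in 5 of the 14 (1 window each of Scg2, Bdnf, Tac1, Cck and Sst, where Bdnf has 7 windows) and in 17.8% of all windows. The windows of Cck (chr9:121495695-121495944, minus strand) and Scg2 (chr1:79440027-79440276, minus strand) are printed whole, and for Sst, whose window lies inside the span of the gene, only 30 bases around the element (chr16:23890874-23890903, minus strand). Capitals mark GTAAACA in Cck, which lies 35 to 29 bases before the start, and TGACGTCA in the other two, 48 to 41 bases before the start in Sst and 68 to 61 in Scg2.
Cck: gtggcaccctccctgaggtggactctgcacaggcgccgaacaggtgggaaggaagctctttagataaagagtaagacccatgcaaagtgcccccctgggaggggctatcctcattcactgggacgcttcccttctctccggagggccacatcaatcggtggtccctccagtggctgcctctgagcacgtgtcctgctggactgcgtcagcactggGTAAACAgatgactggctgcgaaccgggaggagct
Sst: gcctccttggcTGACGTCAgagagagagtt
Scg2: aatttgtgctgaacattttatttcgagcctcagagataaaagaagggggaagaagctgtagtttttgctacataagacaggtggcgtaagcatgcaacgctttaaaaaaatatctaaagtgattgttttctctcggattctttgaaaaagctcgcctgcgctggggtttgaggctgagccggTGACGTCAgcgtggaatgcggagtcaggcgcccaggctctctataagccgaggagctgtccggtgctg
A match describes the letters of the window and not the binding of a factor.

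Foxo1, the check of the deletion, had signals of 4970 to 19074 in the 7 WT samples and 121 to 658 in the 8 KO samples (log2 fold change -5.08, limma adjusted p = 1.16e-07). The CA13-marked WT sample, 437CA13, gave 833 and lay between both ranges. Markers of the captured field went against the marks of the 433 pair. Over 12 markers of dentate granule neurons the mean log2 level was 10.83 to 11.15 in WT samples and 10.93 to 11.10 in the other 7 KO samples, but 7.48 in the unmarked KO sample 433. The 11 markers of CA pyramidal neurons averaged 10.58 in 433 against 7.85 to 8.69 in the other unmarked samples. Sample 437CA13 had the same profile (7.53 for granule and 10.53 for CA markers), whereas 433CA13 (11.001 and 8.15) lay with the unmarked samples. The member fold changes are therefore given with the library labelled 433 and without it.

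No member passed the test of KO versus WT. Of the 12 probe sets, 0 passed an adjusted p of 0.05, where 0.0133% of all probe sets did, and every member's adjusted p rounded to 1.00. At an unadjusted p under 0.05, 0 were higher in KO (1.54% of all probe sets) and 0 were lower (1.68%). Groups without overlap occurred for 0 of the 12 and for 0.0289% of all probe sets. The log2 fold changes of the 10 genes ran from -0.28 to 0.30 with a median of 0.037, beside a median of 0.0089 over all 18193 genes. Without 433 the median of the 10 was -0.11. The smallest exact two-sided permutation p over the 6435 possible arrangements was 0.109, for Penk. Levels below are log2 of the signal plus 32 after quantile normalization, and each is read only against the same probe set.

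**Figure D1:**
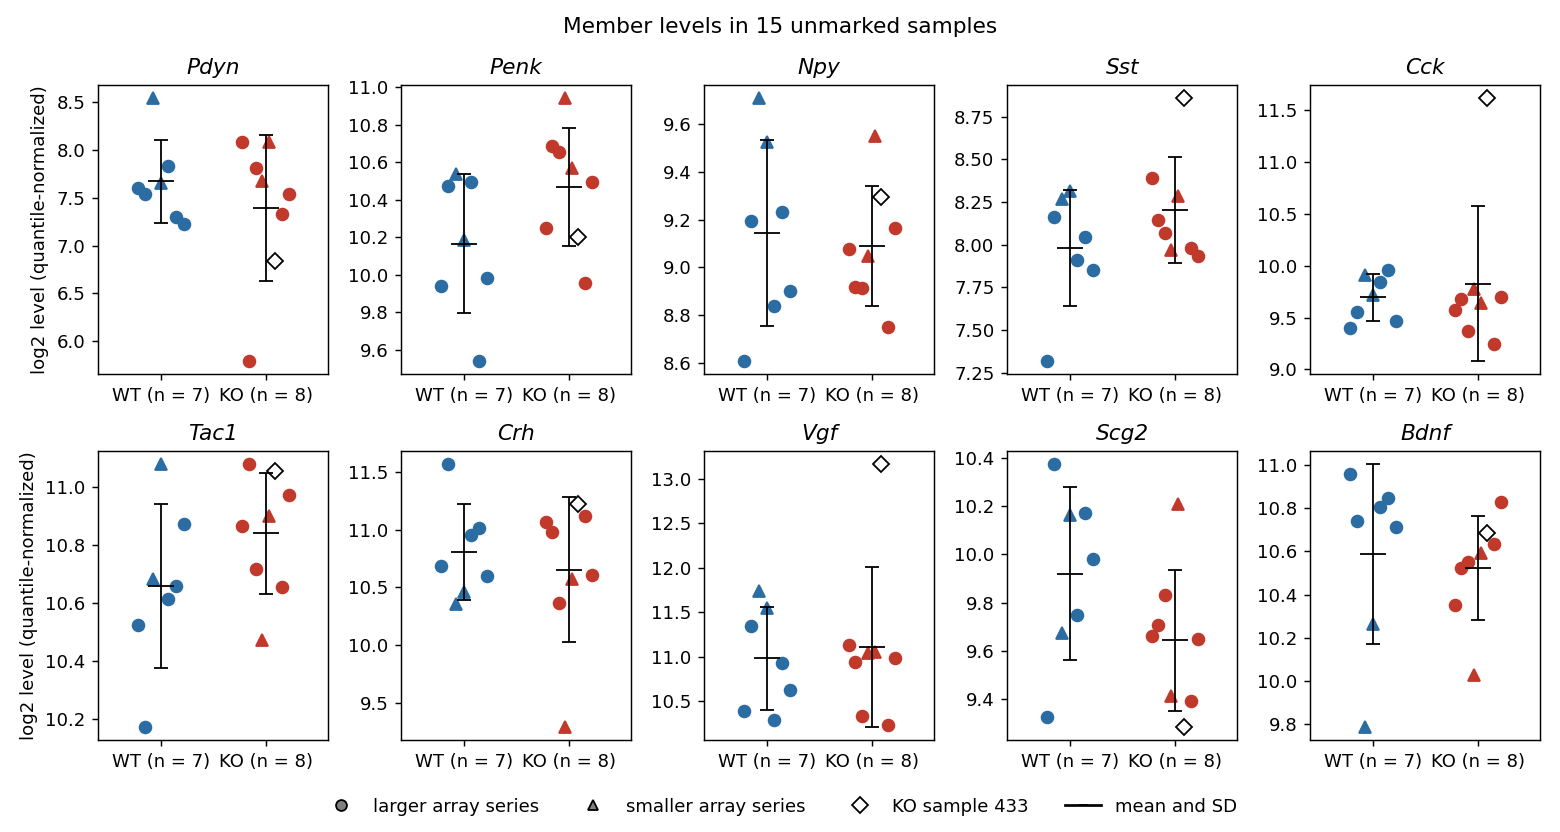
Log2 level (y axis) of the brightest probe set of each of the 10 genes in the 7 WT and 8 KO unmarked samples (x axis), with the mean and SD; triangles are the smaller array series and the open diamond is the KO sample 433. The groups overlap for every gene, and 433 lies far above all other samples for Cck (11.62) and Vgf (13.17).

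Pdyn and Penk encode the precursors of dynorphins and enkephalins, the opioid peptides of granule cells. Pdyn (chr2:129686549-129699938) had a lowest, median and highest level of 7.23, 7.60 and 8.55 in WT and of 5.79, 7.61 and 8.09 in KO. The medians were alike, and the low end of KO was set by sample 384, whose signal of 24.8 was the lowest of all arrays. The log2 fold change was -0.28 ± 0.31 (SE; 95% confidence interval -0.92 to 0.37), and -0.047 without sample 384. Penk (chr4:4133536-4138815) ranged over 9.54, 10.19 and 10.54 in WT and over 9.96, 10.53 and 10.94 in KO. Here 4 of 8 KO samples lay above every WT sample and 7 of 8 above the WT median, yet the groups overlapped. Its log2 fold change was 0.30 ± 0.17 (interval -0.062 to 0.67, exact two-sided permutation p = 0.109), and 0.34 without 433. The interval reaches from 0.958-fold to 1.59-fold.

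Npy encodes neuropeptide Y, which dampens glutamate release, and Sst encodes somatostatin, the peptide of dendrite-targeting interneurons. Npy (chr6:49822710-49829507) had 8.61, 9.19 and 9.71 as the lowest, median and highest levels in WT and 8.75, 9.06 and 9.55 in KO, a log2 fold change of -0.054 ± 0.17 (interval -0.41 to 0.30). All KO values lay within the WT range. For Sst (chr16:23889573-23891342) the levels were 7.32, 8.05 and 8.32 in WT and 7.93, 8.11 and 8.86 in KO. WT sample 206 was the lowest and KO sample 433 the highest. The log2 fold change of 0.22 ± 0.18 (interval -0.16 to 0.60) became 0.13 without 433 and 0.11 without 206. Over 12 interneuron markers, the mean level spanned 7.997 to 8.84 in WT and 8.17 to 8.59 in KO without 433, with 8.53 in 433.

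Cck encodes cholecystokinin, made by a class of basket cells and by pyramidal neurons. Cck (chr9:121489824-121495694) had levels of 9.40, 9.72 and 9.96 in WT and of 9.24, 9.66 and 11.62 in KO. The highest was 433, whose signal of 3005 compared with 563 to 950 in the other 14 unmarked samples. Leaving 433 out took the KO SD from 0.75 to 0.19 and turned the log2 fold change from 0.13 ± 0.27 (interval -0.43 to 0.69) to -0.12 (interval -0.40 to 0.15). So Cck, the 1 gene of the 7 searched with the FOXO element in a window, did not pass the test with or without 433. Without 433 the interval reached from 0.758-fold to 1.11-fold.

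Tac1 encodes the precursor of substance P, and Crh encodes corticotropin-releasing hormone, which in the hippocampus is made by interneurons. Tac1 (chr6:7555061-7562978) had levels of 10.17, 10.66 and 11.08 in WT and of 10.47, 10.88 and 11.08 in KO, with 6 of 8 KO samples above the WT median. Its log2 fold change was 0.18 ± 0.14 (interval -0.10 to 0.47) in the brighter probe set, and 0.10 without WT sample 385. The dimmer probe set, with mean signals of 28.8 in WT and 37.7 in KO, lay near the added 32, so its difference is not given. Crh (chr3:19693401-19695396) had 10.36, 10.68 and 11.57 in WT and 9.29, 10.79 and 11.22 in KO. Sample 390 alone set the low end of KO. The log2 fold change was -0.15 ± 0.25 (interval -0.68 to 0.38), and 0.043 without sample 390.

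Vgf encodes a precursor of several secreted peptides and is induced by neurotrophins and by activity. Vgf (chr5:137025301-137033351) had levels of 10.29, 10.93 and 11.74 in WT and of 10.23, 11.01 and 13.17 in KO. The highest was again 433, with a signal of 9730 against 1169 to 3314 in the other 14 unmarked samples. The log2 fold change of 0.13 ± 0.35 (interval -0.60 to 0.86) turned to -0.16 (interval -0.66 to 0.33) without it. Scg2 (chr1:79434366-79440026), the precursor of secretoneurin, had 9.33, 9.98 and 10.37 in WT and 9.29, 9.66 and 10.21 in KO. Only 1 of 8 KO samples, 391, lay above the WT median. Its log2 fold change was -0.28 ± 0.17 (interval -0.63 to 0.080, exact two-sided permutation p = 0.126), and -0.22 without 433. Bdnf (chr2:109674700-109727043), the ligand of the receptor TrkB, had 9.79, 10.74 and 10.96 in WT and 10.03, 10.57 and 10.83 in KO. In its brighter probe set, both the lowest WT and the lowest KO sample came from the smaller array series. The log2 fold change was -0.065 ± 0.17 (interval -0.42 to 0.29) in the brighter and -0.13 in the dimmer probe set. Without 433 the log2 fold changes of the genes not yet given so were -0.20 for Pdyn, -0.084 for Npy, 0.15 for Tac1, -0.23 for Crh and -0.088 for Bdnf, each with the sign it had over all samples.

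**Figure D2:**
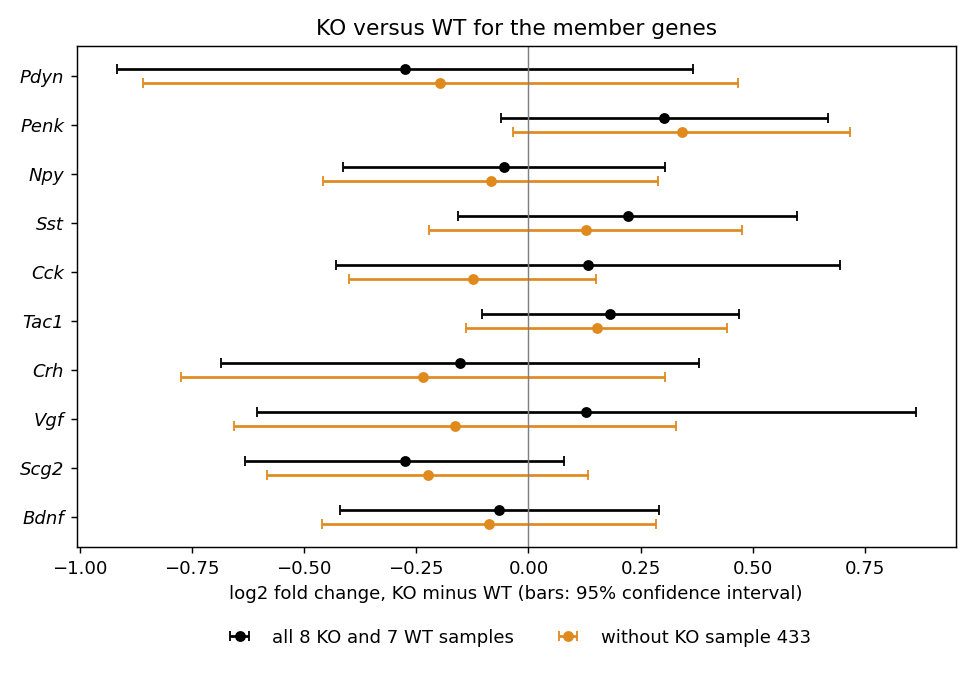
Log2 fold change of KO against WT (x axis) for the 10 genes (y axis), with 95% confidence intervals from limma, over all 15 samples (black) and without KO sample 433 (orange). Every interval includes 0, and the estimates of Cck and Vgf move from 0.13 to -0.12 and from 0.13 to -0.16 when 433 is left out.

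The titles carry 1 of 2 numbers, read here as array series although the labels do not say what they are, which split the unmarked arrays into a larger series of 11 and a smaller one of 4 (2 KO and 2 WT). By the brightest probe set of each gene, the KO versus WT estimate had opposite signs in the 2 series for 6 of the 10 genes. Without 433, which belongs to the larger series, this held for 5. Tac1 gave 0.32 in the larger series (0.29 without 433) and -0.19 in the smaller. Vgf gave 0.41 in the larger series, but 0.0082 without 433, and -0.60 in the smaller. For Cck the larger series gave 0.22, which turned to -0.13 without 433, beside -0.11 in the smaller. The opposite signs of Cck thus depended on 433, while Vgf kept opposite signs without it, with a much smaller estimate in the larger series. Bdnf gave -0.22 (-0.24 without 433) and 0.28 in its brighter probe set, Sst 0.37 (0.24) and -0.17, and Npy 0.065 (0.0095) and -0.32. The dimmer Bdnf probe set kept 1 sign, with -0.15 in the larger series and -0.096 in the smaller. The smallest adjusted limma p of the difference between the series, over all 15 samples, was 0.975.

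The series themselves differed in 2 of the 12 probe sets at an adjusted limma p under 0.05, where 9.82% of all probe sets did. With genotype in the fit, Crh was lower in the smaller series by a log2 difference of -0.76 ± 0.22 (SE, adjusted p = 0.0381). The brighter Bdnf probe set was lower by -0.53 ± 0.14 (adjusted p = 0.0255). Without sample 390, which leaves 3 arrays in the smaller series, neither passed. Crh then gave -0.47 (adjusted p = 0.217) and the brighter Bdnf probe set -0.49 (adjusted p = 0.100), so the size of the latter difference hardly moved. The dimmer Bdnf probe set showed little difference, with -0.038 over all 15 samples (adjusted p = 0.921) and -0.11 without 390 (adjusted p = 0.801). In the fit without 390 Npy, higher in the smaller series by 0.61, passed (adjusted p = 0.0478). Npy also passed without 433 (0.50, adjusted p = 0.039), and over all 15 samples it gave 0.46 (adjusted p = 0.0685). In the fit without 433, Crh (-0.72, adjusted p = 0.0406) and the brighter Bdnf probe set (-0.53, adjusted p = 0.0238) passed too. The shares of all probe sets in the fits without 390 and without 433 are not given here. The comparison of the series was added after seeing the data. The log2 signal ratio of the Gapdh control probe sets at the end and the start of the transcript is a measure of RNA quality. It was 5.11 to 5.37 in the smaller series and 5.04 to 6.41 in the unmarked larger series. Its part in the series differences was not tested.

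Sample 437 has an unmarked and a CA13-marked array of 1 WT mark, which were set side by side with no test, since there is 1 array of each. Of the 12 probe sets, 2 lay at least 1 log2 unit higher in 437CA13 than in 437 and above every other unmarked sample but 433, where 3.63% of all probe sets did. They were Cck and Vgf. The same in the other direction held for 0 of the 12 and for 3.46% of all probe sets. Levels here come from all 17 arrays normalized together. Cck was 9.96 in 437 and 11.61 in 437CA13, a 3.14-fold difference, with 9.24 to 9.91 in the 13 other unmarked samples. Vgf was 10.92 and 12.40, a 2.78-fold difference, with 10.22 to 11.74 in the others. Sst went the same way by less, from 8.06 to 8.64, and lay above the 7.33 to 8.39 of the others.

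The library labelled 433 showed the same genes above the range, with Cck at 11.62, Vgf at 13.17 and Sst at 8.86. Its CA13-marked partner was 3.00-fold lower for Cck (10.03), 3.00-fold lower for Vgf (11.59) and 2.06-fold lower for Sst (7.82). So the marked array was the higher one for 437 and the lower one for 433, as were the CA markers given above. Pdyn was 7.31 in 437 and 6.28 in 437CA13, and 6.86 in 433 and 6.59 in 433CA13. All 4 stayed within the 5.80 to 8.55 of the 13 other samples, but the low end of that range is KO sample 384 alone. The other 12 ran from 7.25, and 437CA13, 433 and 433CA13 lay below all of them, while 437 lay within. Scg2 fell outside in 433 alone, at 9.28 against a lowest value of 9.32 elsewhere. Penk, Npy, Tac1, Crh and Bdnf were within the range of the unmarked samples in both 437CA13 and 433, and in 433CA13 the levels of Npy (9.70), Tac1 (11.11) and Cck (10.03) exceeded the highest unmarked value other than that of 433 by under 0.1.

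**Figure D3:**
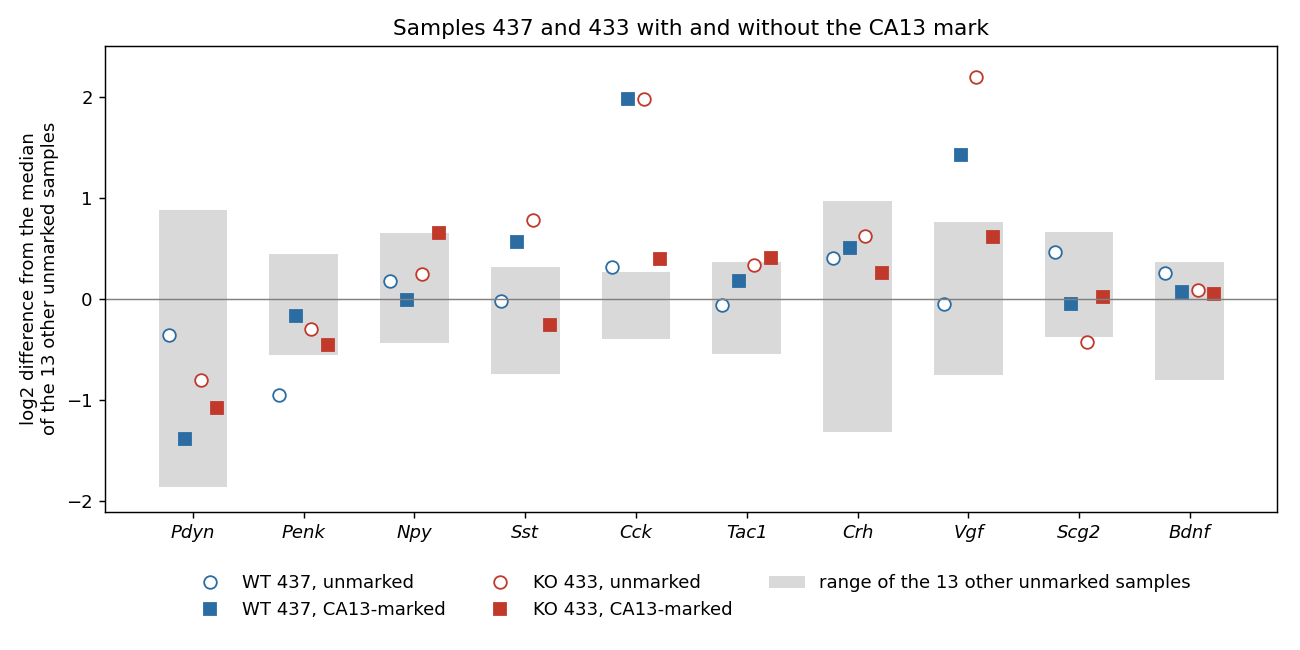
Log2 difference (y axis) of the 4 arrays of marks 437 and 433 from the median of the 13 other unmarked samples, whose range is the grey bar, for each gene (x axis). For Cck, Vgf and Sst the CA13-marked array of 437 and the unmarked array of 433 lie above the bar.

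The mean level of the 18 activity-regulated genes was 9.10 in 437CA13 and 8.90 in 433, against 7.99 to 8.76 in the 13 other unmarked samples. The genes did not all move alike. Of the 18, 8 lay at least 1 log2 unit higher in 437CA13 than in 437 and above every other unmarked sample but 433. In the other direction the same held for 2. The shares of all probe sets were 3.63% and 3.46%. Egr1, an immediate early gene, was 9.95 in 437 and 12.30 in 437CA13. Their part in the levels of Vgf and Cck was not tested.

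Among the 45 pairs of members, levels were correlated across the 14 unmarked samples other than 433, because 433 stands apart. Npy and Vgf rose and fell together most closely, with Pearson r = 0.863 (permutation p = 9.0e-05, adjusted over 45 pairs 0.00405) and Spearman rho = 0.846 (permutation p = 0.00029, adjusted 0.013). Without the 2 samples farthest from the Npy median r was 0.870. Within the 7 WT samples r was 0.946 (exact permutation p = 0.00298, adjusted 0.0759) and within the 7 KO samples without 433 0.658 (exact permutation p = 0.111, adjusted 0.829). Within the larger array series without 433 it was 0.815 over 10 samples (permutation p = 0.00581, adjusted 0.186). So both genotypes and the larger series gave a positive value, though after adjustment none of these subsets passed alone. Of the 45 pairs, 1 passed the adjusted p of 0.05 and 10 had an unadjusted p under 0.05.

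Npy and Sst, which share many hippocampal interneurons, gave r = 0.712 (permutation p = 0.00288, adjusted 0.0648) and rho = 0.714 (permutation p = 0.00537, adjusted 0.0916), and without the 2 farthest samples r = 0.693. For this pair r was 0.896 within WT (exact permutation p = 0.00357) and 0.437 within KO without 433 (exact permutation p = 0.33). Within the larger array series without 433 r was 0.657 (permutation p = 0.0317, adjusted 0.356). The pair passed for r over the 14 samples without quantile normalization (0.726, permutation p = 0.00105, adjusted 0.0236). Over all 15 samples it passed for rho (0.736, permutation p = 0.00259, adjusted 0.0388) but not for r. With 433 included, the pair of Cck and Vgf reached r = 0.861 (permutation p = 0.0013, adjusted 0.0292) with a rho of 0.525 (permutation p = 0.0473, adjusted 0.304), and without the 2 samples farthest from the Cck median its r was 0.447. Over the 14 samples without 433 it was 0.562 (permutation p = 0.0373, adjusted 0.211).

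**Figure D4:**
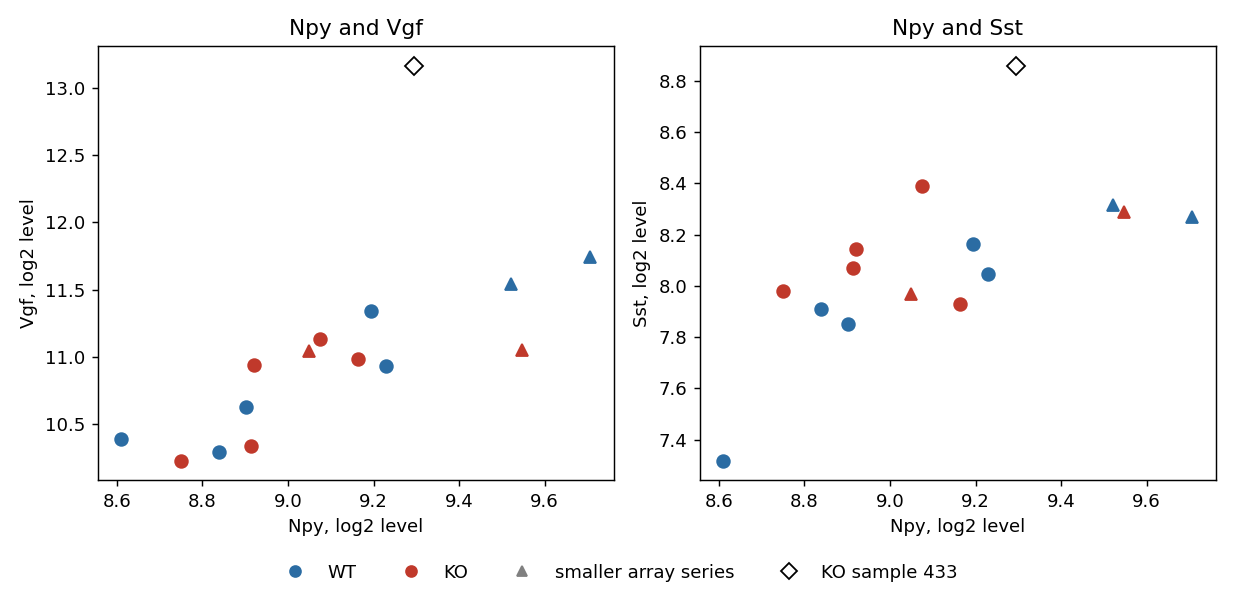
Log2 level of Npy (x axis) against Vgf (left) and Sst (right) in the 15 unmarked samples, WT in blue and KO in red, with triangles for the smaller array series. Npy and Vgf rise together (r = 0.863 over the 14 samples other than 433), and 433, the open diamond, lies far above the other samples for Vgf.

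The machinery around the peptides was read from lists of related genes, each by its brightest probe set, and 0 genes of any list passed the adjusted p in KO versus WT. Over all 18193 genes, 1.53% were higher and 1.52% lower in KO at an unadjusted limma p under 0.05. The counts of each list stand beside these shares. Of 11 genes that cut and mature prohormones, 0 had an unadjusted p under 0.05 with a rise and 1 with a lower level. That was Qpct, the glutaminyl cyclase that caps peptides, whose mean signals of 15.7 in WT and 4.32 in KO lay under the 100 that marks dim probe sets, so no fold is given. Pcsk1n, whose product proSAAS inhibits a prohormone convertase, gave -0.58, and Pcsk5, a convertase, -0.41. Pcsk1n was dim in KO, with mean signals of 107 in WT and 49.3 in KO. Of 12 dense-core vesicle genes, 1 was higher at that level, Chgb, which encodes the granin chromogranin B, with 0.37 ± 0.12 (SE), and 0 were lower. Chgb gave 0.29 without 433 and was 13.69 in 437 and 15.11 in 437CA13.

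Of 19 receptors and binding proteins of the member ligands, 0 had an unadjusted p under 0.05 in either direction, and their median was 0.17. The 3 with the smallest p were the somatostatin receptors Sstr4 (0.40) and Sstr3 and the binding protein Crhbp (0.41). Sstr3 was dim, with mean signals of 46.2 in WT and 67.0 in KO, so no fold is given. Crhbp was dim in WT, with 78.5 there and 120 in KO. Both receptors were higher in 437CA13, with Sstr4 at 9.31 in 437 and 11.31 in 437CA13. The dim Sstr3 was at 5.82 and 8.05. Among 19 other peptides, 2 were lower at an unadjusted p under 0.05 and 0 higher. Grp, gastrin-releasing peptide, gave the largest estimate of that list, -1.05 ± 0.38 (SE), with -0.97 in the larger and -1.19 in the smaller series and -0.93 without 433. It was also lower in 437CA13 (5.92) than in 437 (9.78). Trh, thyrotropin-releasing hormone, was the other, and is likewise dim, with mean signals of 20.6 in WT and 8.88 in KO. Adcyap1, the precursor of PACAP, gave 0.53.

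Of 21 other trophic factors, 1 was lower, Nrtn (neurturin, -0.45 ± 0.21), and 0 were higher. Igf1, the growth factor upstream of AKT and FOXO, gave -0.36 and Nptx2, a secreted pentraxin, 0.40. Of the 18 activity-regulated genes, 17 had a positive estimate (52.4% of all genes did) with a median of 0.17, and 1, Egr1, had an unadjusted p under 0.05 (0.67 ± 0.20, SE). Nr4a1 gave 0.46 and Fos 0.53. Without 433, which has a high mean level of these genes, 14 of the 18 were positive (51.8% of all genes) and the list's median was 0.13. Vgf and Bdnf, both known to respond to activity, gave -0.16 and -0.088 without 433.

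**Figure D5:**
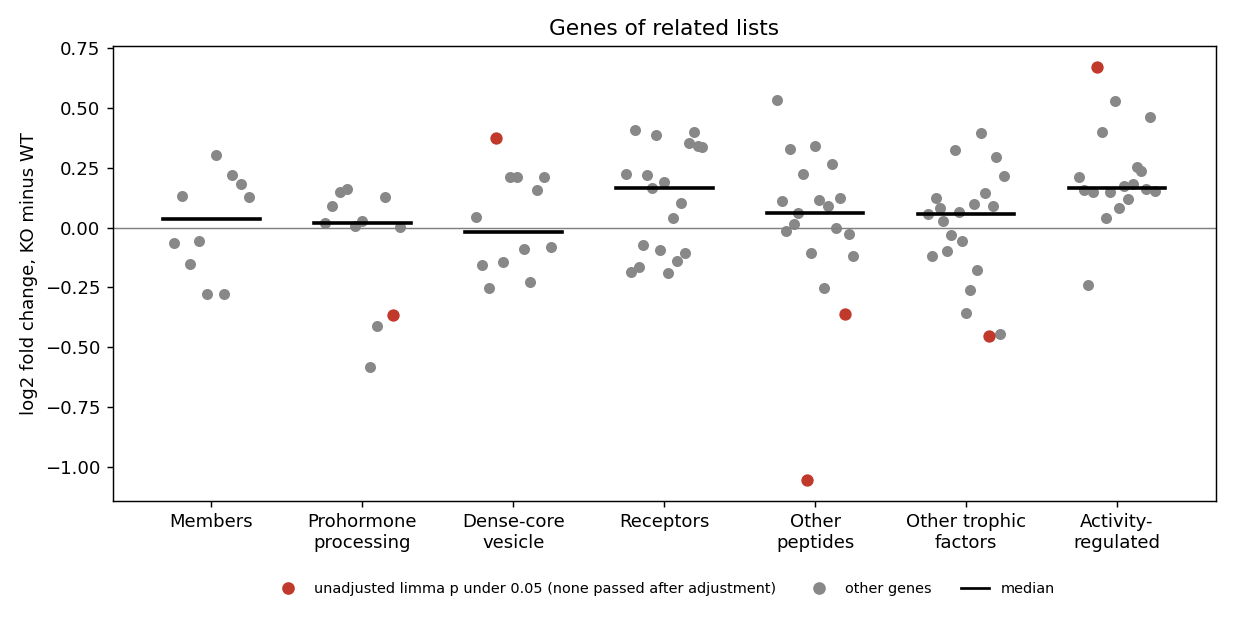
Log2 fold change of KO against WT (y axis) for each gene of the members and of 6 related lists (x axis), with the median as a line and genes of unadjusted limma p under 0.05 in red. No gene passed after adjustment, 17 of the 18 activity-regulated genes lie above 0 (14 without 433), and Grp (-1.05) is the lowest point.

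Markers of other cells were read the same way. Of 9 oligodendrocyte markers, 3 were higher at an unadjusted p under 0.05 (1.53% of all genes were) and their median was 0.42. Of 12 interneuron markers, 0 reached that level (median 0.0053). Among 8 microglia markers, 1 was lower at that level and 0 were higher (median -0.018). Among 10 astrocyte, 3 hilar mossy cell and 8 endothelial and choroid plexus markers, 0 reached it. With 433 included, 1 of 11 CA markers was higher (median 0.47) and 1 of 12 granule markers was lower (median -0.52). Without 433, 2 CA markers were higher and 1 was lower (median 0.18), and 1 granule marker was still lower (median -0.047). The mean level of the oligodendrocyte markers was 9.02 to 10.11 in WT and 9.66 to 10.62 in the 7 other KO samples. Their part in the member levels was not tested.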

How the data were processed

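The deposited table holds 1 signal intensity per probe set and array, for 45101 probe sets in 17 samples, linear from 0.112 to 94033. The authors had summarised the probes and scaled every array to a trimmed mean of 500. The submitters' processing notes name MAS5 and the study's methods name RMA and SAM. RMA starts from scanner files and could not be rerun on this table, and SAM was not run. The build behind the probe sets was not stated in the sources consulted, and no detection calls were used. The number of arrays limits the precision.

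Groups came from the genotype and title labels. After removal of 64 control probe sets, 32 was added to each signal, log2 taken and quantile normalization applied. The 15 unmarked samples were fitted with limma 3.58.1 (R 4.3.3) over 45037 probe sets with genotype as the term, an intensity trend and Benjamini-Hochberg adjustment over all of them, and the fit was tested on simulated data. Exact permutation tests ran over 6435 arrangements, and correlations over 100000 resamples, or all orders for 7 samples. No array repeated another (highest Pearson correlation 0.974). Intervals cover 95%.

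Named were all member probe sets, Foxo1, and up to 3 genes per list with the smallest limma p. Members and lists were chosen with earlier results of these data known. Of the probe sets, 34945 carry 1 symbol, 932 several and 9160 none. All 10 members matched a RefSeq gene by Entrez ID (GRCm38.p6), which gave coordinates. Alternatives were another normalization, pseudocount, dim filter, trend, weights, series block, RNA quality covariate, sample choice, a plain t-test, which the methods do not name for the arrays, and each sample left out.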

Additional observations from a re-analysis of the deposited data

Results flagged for a closer look

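Of 24 combinations of probe set and genotype, 3 had a sample far from the rest of its group, where chance gives about 1 in 20. The KO sample 433 stood far above the other KO samples for Cck (11.62, nearest other 9.78) and for Vgf (13.17, nearest other 11.13). The KO sample 390 stood below the others for Crh (9.29, nearest other 10.36).

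The CA13-marked array minus the unmarked one had opposite signs in the WT mark 437 and the KO mark 433 for 4 genes, both sizes above the spread of the 13 other samples, and this difference was not tested. In log2 units it was 0.59 and -1.04 for Sst, 1.65 and -1.58 for Cck, 1.47 and -1.58 for Vgf, and -0.51 and 0.44 for Scg2. The marker levels of 433 and 433CA13 given above run the same way.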

How the results depend on the processing

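In every alternative run for KO versus WT, 0 member probe sets passed the adjusted p. The count of genes of 437CA13 outside the unmarked range stayed at 3 under the 3 alternatives run for it (no quantile normalization, a smaller and a larger pseudocount). Of 250 recomputed fold changes, 240 kept their sign and 10 turned it, and Pdyn, Penk, Sst, Tac1 and Scg2 turned in none, though Pdyn came to -0.047 without 384. Cck turned to -0.0046 with array weights and -0.066 with 433CA13 in place of 433, where Vgf turned to -0.067, and Npy turned to 0.064 in the larger array series. With 1 sample left out at a time, Cck ranged from -0.12 (without 433) to 0.21, Vgf from -0.16 (without 433) to 0.26, Npy from -0.14 to 0.040 (without WT sample 392, and 0.0090 without 393), Crh from -0.23 to 0.043 and Bdnf from -0.20 to 0.0060 (both upper ends without 390). The cause was not tested, except that 433 and 433CA13 stand apart in field markers as given above. An unadjusted p under 0.05 arose with a higher level in KO for Tac1 in the larger series and Penk without 903. It arose with a lower level in KO for Scg2 without 391 or without 206, and for Vgf in the smaller series (-0.60, 2 KO and 2 WT samples). Member pairs past the adjusted p numbered 1 over 14 samples, 2 over all 15 and 2 without quantile normalization. Over all 15, Npy and Vgf no longer passed for r (0.650, permutation p = 0.00655, adjusted 0.0874) but did for rho (0.846, permutation p = 9.0e-05, adjusted 0.00405), and for r Sst with Vgf and Cck with Vgf did. The dim filter left 11 of the 12 member probe sets. No paired analysis was possible because the labels give the samples marks and no numbers shared between genotypes.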
